A study of Mus musculus with 6 samples.

Results

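Syndecans and glypicans are the main families of proteoglycans that carry heparan sulfate at the cell surface, and their mRNAs were followed here after knockdown of the ubiquitin ligase gene Nedd4 in neural crest cells. The members were taken by name, as each syndecan gene (Sdc1, Sdc2, Sdc3, Sdc4) and glypican gene (Gpc1, Gpc2, Gpc3, Gpc4, Gpc5, Gpc6) with a probeset of its own. All 10 were measured, of 19933 genes on the arrays, and each had a single such probeset. Total RNA came from NCU10K, an immortalized mouse neural crest cell line, 48 h after RNAiMAX transfection with control siRNA (3 arrays) or Nedd4 siRNA (3 arrays). Each array is a separate experiment in these otherwise untreated cells, and 300 ng of RNA was labelled for an Affymetrix mouse gene array. Elsewhere in the study the control is described as a low GC siRNA, and no rescue is described for the arrays, so loss of NEDD4 and other effects of the Nedd4 siRNA cannot be told apart.

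Each core protein of these families carries long heparan sulfate chains, which bind growth factors, morphogens, chemokines and matrix proteins and hold them near their receptors. Syndecans span the membrane and end in a short conserved cytoplasmic tail that meets PDZ proteins and the actin cytoskeleton. Glypicans have no such tail, since a glycosylphosphatidylinositol (GPI) anchor ties them to the outer leaflet, from where they modulate Wnt, Hedgehog, BMP and FGF signals. In the neural crest, heparan sulfate is known for its part in migration through fibronectin-rich matrix and in the response to these signals.

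Nedd4 mRNA was lower on each Nedd4 siRNA array, at 10.45, 10.94 and 10.68 on the log2 scale against 12.24, 12.35 and 12.34 with control siRNA, and the groups did not overlap. Its log2 fold change (Nedd4 siRNA minus control siRNA, here and below) was −1.62 (standard error 0.12, limma adjusted p = 3.16e-06). Array medians lay between 6.28 and 6.35, and no pair of arrays held identical values. A change is called where limma's p, adjusted by the Benjamini-Hochberg method over all 28440 probesets, is under 0.05. By this rule 18.7% of genes changed (16.1% of all probesets), 9.62% higher and 9.13% lower, and the median log2 fold change over all genes was −0.02. The number of arrays limits the precision. Neural crest identity was visible in the controls, with Sox10 at 11.07 ± 0.13 (SD, n = 3) on the log2 scale, while the neural crest genes Tfap2b and Ednrb had signals in the dimmest 25% of probesets.

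Of the 10 syndecans and glypicans, 3 rose and 1 fell, while the other 6 did not pass the test. Sdc2, Sdc4 and Gpc1 were higher and Gpc6 was lower in Nedd4 siRNA cells. For the same 4 genes the groups did not overlap, which held for 31.7% of all genes. The share called, 40% of members, stands beside 18.7% of all genes, 16.1% of probesets and 33.4% of the genes whose mean signal lay above the median probeset, where 7 of the 10 members lie. Syndecans had 2 of 4 higher and 0 lower, with a median log2 fold change of 0.32. Glypicans had 1 of 6 higher and 1 lower, with a median of −0.04. These counts describe the members and were not tested as a group.

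**Figure D1:**
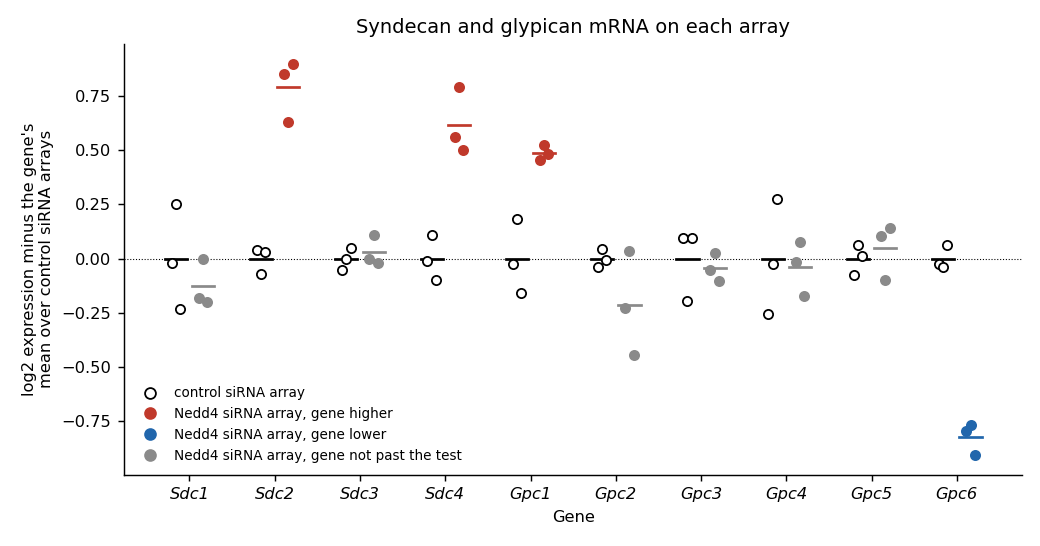
Log2 expression of each syndecan and glypican on each array, minus that gene's mean over the 3 control siRNA arrays (y axis), by gene (x axis). Open points are control siRNA arrays, filled points Nedd4 siRNA arrays (red, higher; blue, lower; grey, not past the test) and lines group means; all Nedd4 siRNA points of Sdc2, Sdc4 and Gpc1 lie above, and those of Gpc6 below, every control point of the gene.

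Among the syndecans, Sdc2 had the largest change. Sdc2 encodes the syndecan typical of mesenchymal cells, also known as fibroglycan. Its log2 signal was 9.82, 9.71 and 9.81 on the control siRNA arrays and 10.63, 10.41 and 10.68 on the Nedd4 siRNA arrays. The lowest Nedd4 siRNA array, replicate 2, still lay above the highest control array. Mean levels were 9.78 ± 0.061 (SD, n = 3) and 10.57 ± 0.14 (SD, n = 3), which is a 1.73-fold rise with a log2 fold change of 0.79 (standard error 0.096, limma adjusted p = 0.000125). Of all genes, 2.82% had a change at least as large in either direction.

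Sdc4, a widely expressed syndecan of focal adhesions that binds protein kinase C alpha, rose as well. Its log2 signal was 8.86, 8.98 and 8.77 with control siRNA and 9.43, 9.66 and 9.37 with Nedd4 siRNA. The groups were separate, and replicate 2 was the highest array in each. The means of 8.87 ± 0.11 (SD, n = 3) and 9.49 ± 0.15 (SD, n = 3) give a 1.53-fold rise, with a log2 fold change of 0.62 (standard error 0.10, limma adjusted p = 0.0011). By the methods' t-test Sdc4 did not pass (adjusted p = 0.0543), while Sdc2 did (adjusted p = 0.0265).

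Sdc1 and Sdc3 did not pass the test. Sdc1, the syndecan best known from epithelia and plasma cells, was at 9.58, 9.85 and 9.37 on the control arrays and at 9.42, 9.60 and 9.40 on the Nedd4 siRNA arrays. The Nedd4 siRNA values fell inside the range of the controls, whose spread was wide (SD 0.24). Its log2 fold change was −0.13, with a 95% confidence interval from −0.39 to 0.13 (adjusted p = 0.62, limma). Sdc3, the syndecan of the developing nervous system and a receptor for pleiotrophin, varied least among the syndecans. It was at 11.83, 11.88 and 11.93 with control siRNA and at 11.88, 11.99 and 11.86 with Nedd4 siRNA, and the groups overlapped. Its log2 fold change was 0.03 with a 95% confidence interval from −0.16 to 0.22, so a change of the size seen in Sdc2 or Sdc4 lies outside that interval.

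The stretches just upstream of the transcription start of Sdc4, which rose, and Sdc3, which did not pass the test, are shown to set a gene that was called beside one that was not. They are 250 bases each on the gene's strand, from RefSeq (GRCm38.p6), with capitals marking GGGCGG or its reverse complement, the core of a GC box. Sdc4 lies at chr2:164443189-164443438 on the minus strand and Sdc3 at chr4:130792287-130792536 on the plus strand.
Sdc4: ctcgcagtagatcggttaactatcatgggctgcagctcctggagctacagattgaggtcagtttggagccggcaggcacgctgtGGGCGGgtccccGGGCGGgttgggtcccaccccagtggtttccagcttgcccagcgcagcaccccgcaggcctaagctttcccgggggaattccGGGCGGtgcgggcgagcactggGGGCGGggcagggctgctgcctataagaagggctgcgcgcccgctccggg
Sdc3: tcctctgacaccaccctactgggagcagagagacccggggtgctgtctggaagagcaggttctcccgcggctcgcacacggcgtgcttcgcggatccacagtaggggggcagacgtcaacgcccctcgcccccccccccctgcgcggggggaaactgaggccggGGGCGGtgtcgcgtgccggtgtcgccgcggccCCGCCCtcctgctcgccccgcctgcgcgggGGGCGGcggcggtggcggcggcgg
The Sdc4 stretch held 4 such matches and the Sdc3 stretch 3, and 32.7% of all 32851 promoter windows of this length held at least 1. Their GC content was 68.0% and 76.4%, against a median of 52.4%. Neither held TATAAA or TGANTCA on either strand, letters that 12.4% and 6.75% of windows hold. Windows were given for 7 of the 10 members, and all 7 held GGGCGG, from 1 match in Gpc4 and Gpc5 to 4 in Sdc4. A match describes the letters alone.

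Gpc1 was the glypican that rose. Gpc1 encodes a glypican that is widely expressed in the nervous system and binds FGF2. Its log2 signal was 10.91, 11.12 and 10.78 with control siRNA and 11.39, 11.46 and 11.42 with Nedd4 siRNA. The Nedd4 siRNA arrays lay close together (SD 0.035) and all above the controls (SD 0.17). Mean levels of 10.94 and 11.42 give a 1.40-fold rise, with a log2 fold change of 0.49 (standard error 0.10, limma adjusted p = 0.0046), but Gpc1 was not called by the methods' t-test (adjusted p = 0.0778). In the RefSeq annotation Gpc1 overlaps Ankmy1, whose own probeset stood at 5.70 on average in both groups.

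Gpc6, a glypican of mesenchyme, growth plate and astrocytes, was the member that fell. Its log2 signal was 8.96, 8.95 and 9.05 with control siRNA and 8.19, 8.22 and 8.08 with Nedd4 siRNA. Replicates were tight in both groups, at 8.99 ± 0.055 (SD, n = 3) and 8.16 ± 0.074 (SD, n = 3). Gpc6 was therefore lower by 1.77-fold, with a log2 fold change of −0.82 (standard error 0.087, limma adjusted p = 4.52e-05), a size that 2.51% of all genes reached. It passed by the methods' t-test too (adjusted p = 0.014). Gpc5 is the neighbour of Gpc6 in the genome. Its log2 signal was 5.36, 5.50 and 5.45 with control siRNA and 5.54, 5.34 and 5.58 with Nedd4 siRNA. The groups overlapped and the Gpc5 probeset was among the dimmest 25%, with a log2 fold change of 0.05 (95% confidence interval −0.16 to 0.26).

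Gpc4, Gpc3 and Gpc2 did not pass the test either. Gpc4, a glypican of neural progenitors and astrocytes that lies beside Gpc3 on the X chromosome, had the widest spread of all members among the controls, at 8.75, 8.98 and 9.28 (SD 0.27). Its Nedd4 siRNA values of 8.99, 9.08 and 8.83 lay within that range, and the 95% confidence interval of the log2 fold change ran from −0.31 to 0.24. Gpc3, the glypican whose loss causes an overgrowth syndrome, was at 5.37, 5.08 and 5.37 with control siRNA and at 5.22, 5.30 and 5.17 with Nedd4 siRNA. Its probeset was in the dimmest 25%, where a change in RNA is hard to see, and the interval ran from −0.26 to 0.18. Gpc2, a glypican of developing neurons, was at 6.23, 6.31 and 6.26 with control siRNA. With Nedd4 siRNA it was at 6.04, 6.30 and 5.82, so that 2 arrays lay below the controls and replicate 2 among them. Its log2 fold change was −0.21, with a 95% confidence interval from −0.46 to 0.04 (adjusted p = 0.286, limma). Gpc2 overlaps Stag3 in the RefSeq annotation, and Stag3 stood at 5.55 and 5.61.

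**Figure D2:**
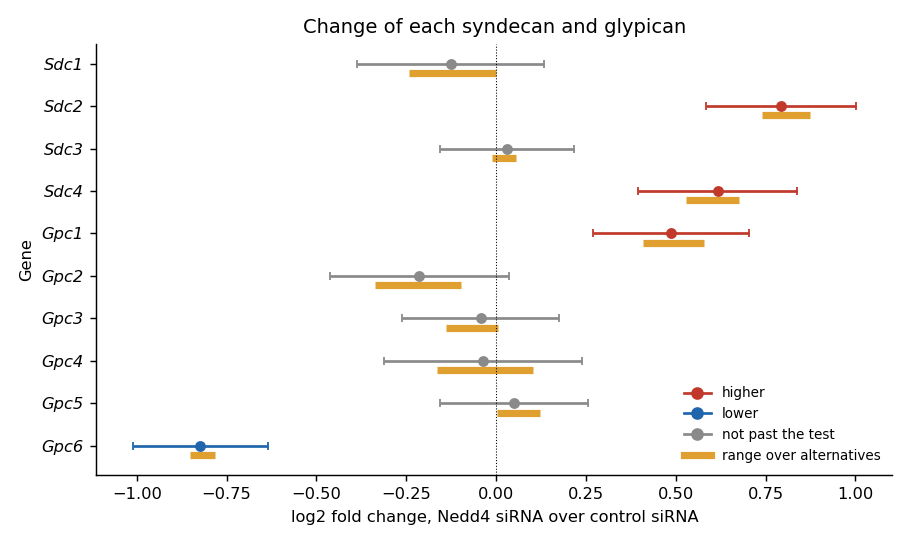
Log2 fold change of each syndecan and glypican (x axis; Nedd4 siRNA over control siRNA) by gene (y axis), with points for limma estimates (3 arrays in each group), bars for 95% confidence intervals and ochre bars for the range of the estimate over the alternatives run. The ochre bars of Sdc2 (0.74 to 0.88), Sdc4 (0.53 to 0.68), Gpc1 (0.41 to 0.58) and Gpc6 (−0.85 to −0.78) stay away from 0, and those of Sdc3, Gpc3 and Gpc4 cross it.

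The genes that build the heparan sulfate chain were taken from lists by step. Over 5 lists (linkage region, polymerisation, modification, sulfate supply and breakdown) 6 of 45 measured genes were higher and 10 lower, while 29 did not pass, a share called of 35.6% beside 18.7% of all genes and 33.4% of genes with a mean signal above the median probeset. The median log2 fold change was −0.06. The largest fall among these 45 genes was that of Hs2st1, which encodes the enzyme that sulfates uronic acids of the chain at the 2-O position. Hs2st1 was at 9.59, 9.95 and 9.98 with control siRNA and at 8.58, 8.82 and 8.53 with Nedd4 siRNA. Every Nedd4 siRNA array lay below every control array, a 2.29-fold fall with a log2 fold change of −1.20 (standard error 0.12, limma adjusted p = 3.18e-05).

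In the linkage region, which joins the chain to the core protein of syndecans and glypicans alike, 2 of 7 genes were higher and 1 lower. Pxylp1, the phosphatase that removes a phosphate from the linkage xylose so that the chain can be extended, was 2.63-fold higher. Its log2 signal was 7.48, 7.83 and 7.56 with control siRNA and 9.03, 9.02 and 9.01 with Nedd4 siRNA, with a log2 fold change of 1.40 (standard error 0.10, limma adjusted p = 3.33e-06). Fam20b, the kinase that adds that phosphate, did not pass the test, with a log2 fold change of −0.20 (adjusted p = 0.227). The glucuronosyltransferase gene B3gat3 rose by 0.43 on the log2 scale (adjusted p = 0.0219), and the galactosyltransferase gene B3galt6 fell by 0.45 (adjusted p = 0.00459, limma). Neither B3gat3 nor B3galt6 passed by the methods' t-test, and B3gat3 did not pass without control siRNA replicate 1 or 3 or Nedd4 siRNA replicate 1.

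Among the 5 polymerisation genes 2 were lower and 0 higher. Extl3, which adds the initial N-acetylglucosamine and so starts a heparan sulfate chain, was at 9.93, 9.99 and 9.84 with control siRNA and at 9.24, 9.24 and 9.20 with Nedd4 siRNA. The groups were far apart relative to their spread, with a log2 fold change of −0.69 (standard error 0.085, limma adjusted p = 0.000139). Extl2, a related transferase, fell by 0.38 (adjusted p = 0.0232), though not by the methods' t-test, nor without control siRNA replicate 2 or Nedd4 siRNA replicate 1 or 3. Ext1 and Ext2, which form the polymerase itself, did not pass, with log2 fold changes of 0.21 (adjusted p = 0.123) and 0.17 (adjusted p = 0.233).

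Of 17 measured genes that modify the chain, 4 were lower and 1 higher, while Ndst1 was on the list but was not measured. Besides Hs2st1, the N-deacetylase and N-sulfotransferase gene Ndst3 fell, from 6.75 ± 0.082 to 6.03 ± 0.075 (SD, n = 3 each) and by 0.72 on the log2 scale (adjusted p = 0.000141, limma). The 6-O-sulfotransferase gene Hs6st2 fell by 0.46 (adjusted p = 0.00901) and the 3-O-sulfotransferase gene Hs3st1 by 0.35 (adjusted p = 0.0442). Hs3st5, another 3-O-sulfotransferase gene, was higher by 0.36 (adjusted p = 0.0252). Sulf2, which removes 6-O-sulfate outside the cell, stood at 10.50 and 10.51 and did not pass. Hs6st2, Hs3st1 and Hs3st5 were not called by the methods' t-test. Hs3st1 was also not called without control siRNA replicate 2 or 3 or Nedd4 siRNA replicate 1 or 3, nor Hs3st5 without replicate 1 or 2 of either siRNA. Of these 17 genes, 9 had a mean signal at or under the median probeset.

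The supply of activated sulfate went both ways, with 2 of 7 genes higher and 2 lower. The sulfate transporter gene Slc26a2 fell by 0.49 on the log2 scale (standard error 0.086, limma adjusted p = 0.00164). Papss1, which makes the sulfate donor PAPS, fell by 0.42 (adjusted p = 0.00656), while its paralogue Papss2 stood at 11.15 and 11.21 and did not pass. The Golgi PAPS transporter gene Slc35b3 rose by 0.55 (adjusted p = 0.00391). The related gene Slc35b2 on the same list stood at 8.08 and 7.81, with a log2 fold change of −0.27. Its groups did not overlap, but it did not pass the test (adjusted p = 0.0726, limma). Bpnt2, a Golgi phosphatase that clears the by-product of sulfation, rose by 0.74 (adjusted p = 0.00133), with control arrays between 9.69 and 10.26 and Nedd4 siRNA arrays between 10.66 and 10.71. Papss1, Slc35b3 and Bpnt2 were not called by the methods' t-test. Among 9 measured breakdown genes, the lysosomal sulfatase gene Sgsh was lower (−0.55, adjusted p = 0.000957) and the iduronidase gene Idua higher (0.46, adjusted p = 0.00327), and the heparanase gene Hpse stood in the dimmest 25% of probesets, at 5.21 and 5.23.

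**Figure D3:**
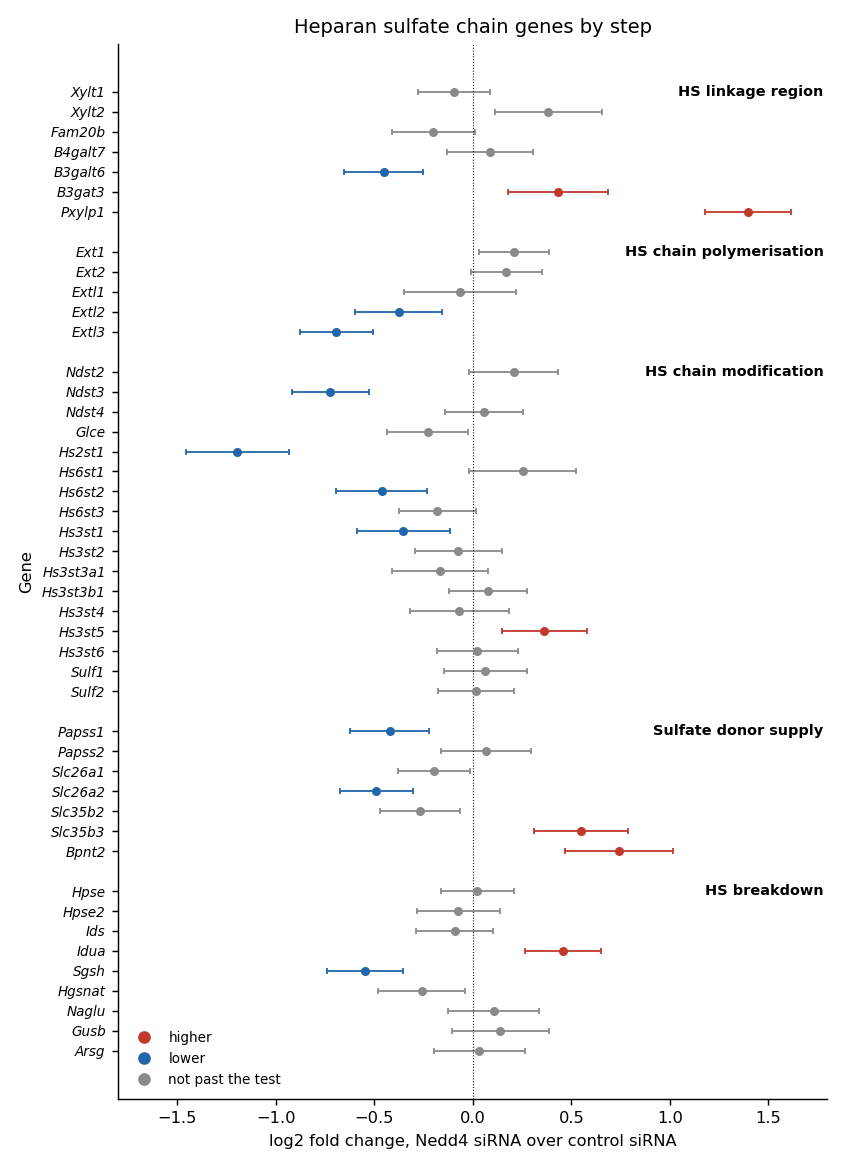
Log2 fold change (x axis; Nedd4 siRNA over control siRNA) of the 45 measured genes of heparan sulfate (HS) chain synthesis, sulfate supply and breakdown (y axis), grouped by step. Points show limma estimates (3 arrays in each group) and bars their 95% confidence intervals (red, higher; blue, lower; grey, not past the test); Pxylp1 at 1.40 and Hs2st1 at −1.20 lie at the ends.

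Genes that act on the syndecan tail or release the core proteins were read next. Among 15 cytoplasmic partners 3 were higher and 1 lower, so that 26.7% were called beside 18.7% of all genes and 33.4% of those with above-median signal. Sdcbp, which encodes the syndecan-binding PDZ protein syntenin, was at 11.27, 11.26 and 11.41 with control siRNA and at 11.75, 11.59 and 11.63 with Nedd4 siRNA. The groups did not overlap, with a log2 fold change of 0.34 (standard error 0.090, limma adjusted p = 0.0196). Prkca, the kinase gene whose product binds the Sdc4 tail, rose by 0.44 (adjusted p = 0.0191). Ezr, a linker of membrane proteins to actin, rose by 0.84 (adjusted p = 0.000367), and Cask, a PDZ scaffold of syndecans, fell by 0.28 (adjusted p = 0.0485). None of these 4 calls held by the methods' t-test. Sdcbp did not pass without control siRNA replicate 1 or 2 or Nedd4 siRNA replicate 1, Prkca without control siRNA replicate 3 or Nedd4 siRNA replicate 1, and Cask lost its call whichever array was left out.

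Of 18 measured genes of shedding and release, 2 were higher and 5 lower, while 11 did not pass, among them Adam10 (−0.18) and Mmp2 (0.03). The share called was 38.9%, beside 18.7% of all genes and 33.4% of those with above-median signal. Of the 18 genes, 9 lay at or under the median probeset. Timp3, a secreted inhibitor of metalloproteinases that itself binds heparan sulfate, was at 12.96 ± 0.032 (SD, n = 3) with control siRNA and at 12.24, 12.34 and 12.12 with Nedd4 siRNA, all below the controls. That is a 1.66-fold fall (log2 fold change −0.73, standard error 0.090, limma adjusted p = 0.000138). The sheddase gene Adam17, whose product Timp3 inhibits, rose by 0.40 (SE 0.088, adjusted p = 0.00699), from 9.26 ± 0.095 to 9.66 ± 0.035 (SD, n = 3 each). The protease gene Adamts4 fell by 0.80 (adjusted p = 0.000605), and Furin, which cleaves glypican precursors, by 0.38 (adjusted p = 0.0128). Gdpd5, a membrane enzyme that can cleave GPI anchors, fell by 0.49 (adjusted p = 0.00192). The phosphodiesterase gene Gde1, the other of the 2 higher genes on this list, rose by 0.53 (adjusted p = 0.00182). Whether its product releases glypicans was not tested, and its place on the list is no evidence that it does. Adamts4 and Furin were not called by the methods' t-test, nor Furin without Nedd4 siRNA replicate 1 or 3.

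The GPI anchor that holds glypicans is made and attached by a long pathway, of which 3 of 27 measured genes were higher and 7 lower. The share called was 37.0%, beside 18.7% of all genes and 33.4% of those with above-median signal. Only 2 of the 27 genes lay at or under the median probeset. Pigq, a subunit of the complex for the initial step, was at 10.53, 10.54 and 10.50 with control siRNA and at 8.97, 9.30 and 9.0 with Nedd4 siRNA. It was 2.70-fold lower (log2 fold change −1.43, standard error 0.10, limma adjusted p = 2.78e-06). The transamidase subunit genes Pigu (−0.51, adjusted p = 0.0011) and Pigt (−0.50, adjusted p = 0.00293) fell, as did the anchor-modifying genes Pgap2 (−0.54, adjusted p = 0.00133) and Pign (−0.48, adjusted p = 0.00195). Pigm, which encodes a mannosyltransferase, rose (0.60, adjusted p = 0.00133). Pigt and Pigm were not called by the methods' t-test. The list's median log2 fold change was −0.14.

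Other carriers of heparan sulfate and soluble ligands of the chains were also read. Among 7 such proteoglycans, of which 42.9% were called, Col18a1 fell (−0.46, adjusted p = 0.00633), and the part-time carriers Tgfbr3 (0.38, adjusted p = 0.0273) and Nrp1 (0.28, adjusted p = 0.0412) rose. The basement membrane genes Hspg2 and Agrn had log2 fold changes of 0.08 and −0.13 and did not pass. Col18a1 and Tgfbr3 were not called by the methods' t-test. Nrp1 lost its call whichever array was left out, and Tgfbr3 without control siRNA replicate 2 or 3 or Nedd4 siRNA replicate 1 or 2. Of 24 soluble heparin-binding ligands, 3 were higher and 2 lower (20.8% called, beside 18.7% of all genes), and 14 lay at or under the median probeset. Pdgfb (−0.97, adjusted p = 6.78e-05) and Cxcl12 (−0.65, adjusted p = 0.000242) fell, and Wnt5a (0.67, adjusted p = 0.000471), Fn1 (0.35, adjusted p = 0.0106) and Vegfa (0.31, adjusted p = 0.0254) rose. Fn1 did not pass without Nedd4 siRNA replicate 1, nor Vegfa without control siRNA replicate 3 or any single Nedd4 siRNA array.

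Across all 10 lists 19 of 136 measured genes were higher and 26 lower, while 91 did not pass, a share called of 33.1%, beside 18.7% of all genes and 33.4% of genes with a mean signal above the median probeset. Without Nedd4 siRNA replicate 1, 9 were higher and 20 lower.

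**Figure D4:**
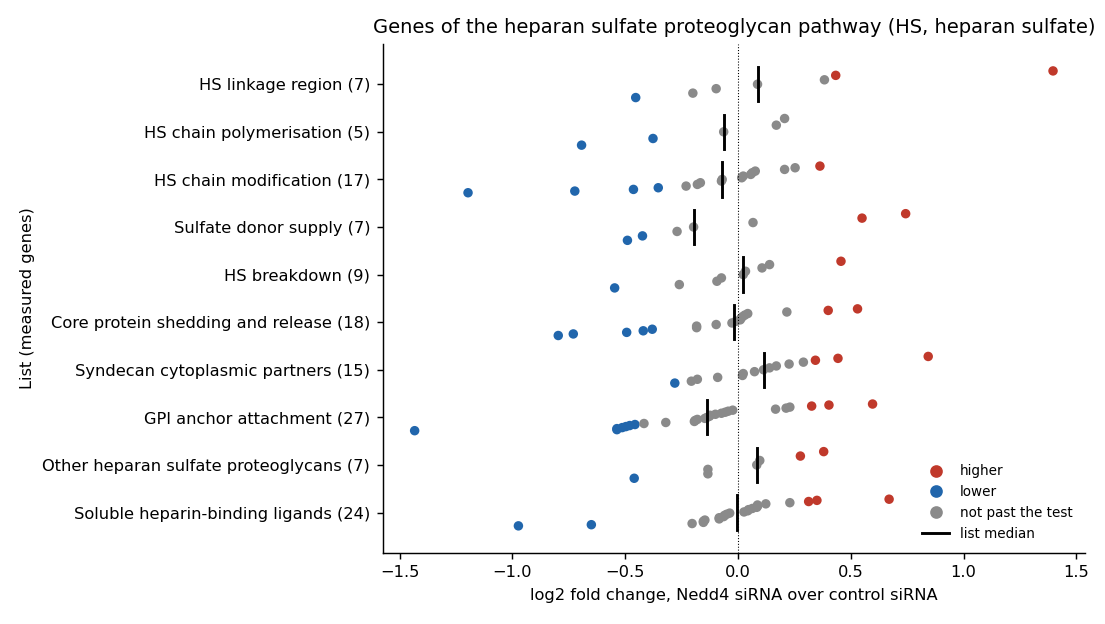
Log2 fold change (x axis; Nedd4 siRNA over control siRNA) of each measured gene in 10 lists of the heparan sulfate (HS) proteoglycan pathway (y axis; number of measured genes in brackets). Each point is 1 gene (red, higher; blue, lower; grey, not past the test) and each black line the median of a list, which ranged from −0.20 for sulfate supply to 0.11 for cytoplasmic partners.

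Cell type markers also differed between the groups. Of 13 neural crest markers 6 were lower and 2 higher, and the log2 of their summed level was 13.76 to 13.80 with control siRNA and 13.35 to 13.47 with Nedd4 siRNA. Erbb3 (−1.14), Foxd3 (−0.54), Ets1 (−0.53), Tfap2a (−0.51), Sox10 (−0.43) and Snai2 (−0.33) were the lower ones, with Sox9 (0.66) and Twist1 (0.31) higher. Of 11 mural cell and fibroblast markers 4 were higher and 0 lower, with a log2 summed level of 11.58 to 11.73 and 12.10 to 12.17. Pdgfra (0.81), Dcn (0.58), Pdgfrb (0.54) and Des (0.36) were higher. Acta2 (0.22), Myh11 (0.15), Cnn1 (0.14), Thy1 (0.03), Rgs5 (−0.03), Lum (−0.03) and Tagln (−0.06) did not pass the test. Of the 11 markers, 6 lay at or under the median probeset, and Cnn1 and Lum lay in the dimmest 25% of probesets. Of 7 Schwann cell markers Fabp7 (1.20) and Egr2 (0.90) were higher and Mbp (−0.27) lower, with a log2 summed level of 13.54 to 13.61 and 13.69 to 13.72. Tubb3 (0.35) was higher among 7 neuronal markers, with a log2 summed level of 8.57 to 8.71 and 8.68 to 8.75. None of the 6 epithelial markers or 5 endothelial and blood markers passed limma's test, at either adjusted or unadjusted p under 0.05, nor the methods' t-test. The log2 summed level of the epithelial markers was 8.63 to 8.77 with control siRNA and 8.52 to 8.61 with Nedd4 siRNA, and that of the endothelial and blood markers 7.68 to 7.93 and 7.72 to 7.88. In these bulk samples a shift in the share of cells of a type and a change in RNA per cell cannot be told apart, and the part of these markers in the changes of Sdc2, Sdc4, Gpc1 and Gpc6 was not tested. Ets1, Sox10, Snai2, Twist1, Des and Egr2 were not called by the methods' t-test, and Mbp, Twist1, Snai2 and Des each lost the call in 3 or more of the 6 fits that leave out an array.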

How the data were processed

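Expression was measured on 6 Affymetrix Mouse Gene ST arrays of NCU10K cells, 3 per group, with groups taken from the labels. The authors deposited log2 expression values per probeset, made in Partek Genomics Suite (version 6.5 per the labels) with RMA background correction and a GC content correction, and summarised by the mean of the probes. A summarised log2 value carries no count of molecules, and small changes of dim probesets are compressed. Nothing was renormalised.

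Probesets were named from the platform annotation: of 28440 probesets, 21780 had 1 gene symbol, 1618 several and 5042 none, and only the first kind was named, with the probeset of highest mean per gene (Bpnt2 is listed under an older symbol). Nedd4 siRNA was compared with control siRNA over all 6 arrays by limma (version 3.58.1, R 4.3.3; lmFit and eBayes, two-sided), with p-values adjusted over all probesets (Benjamini-Hochberg) and called under 0.05. The fit was tested on simulated data. An exact permutation test of 3 against 3 arrays cannot give a p below 0.10 and was not used.

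The members and gene lists were chosen with earlier results of these data known. All members were named, and from each pathway list up to 6 genes past the test with the smallest p, and the markers past the test. Other list genes (among them Fam20b, Ext1, Ext2, Sulf2, Papss2, Hpse, Hspg2 and Agrn) were named for their role after their values were seen. Upstream sequences and neighbours came from RefSeq tables (GRCm38.p6). In all 17 alternatives were run. Those of the model were the methods' t-test (their ANOVA of a single factor), an eBayes fit with a robust trended prior, weights for arrays, and the replicate number as a block. Those of the values were median centring, quantile normalization, and leaving out the dimmest 25% or 50% of probesets. Others used only probesets with 1 symbol, averaged the probesets of each gene, or asked for an adjusted p under 0.01, and 6 left out an array each.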

Additional observations from a re-analysis of the deposited data

How the results depend on the processing

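Sdc2 and Gpc6 kept their direction and call under all alternatives that gave a value, and Sdc4 and Gpc1 lost their calls by the methods' t-test alone, which left 1 member higher and 1 lower. The cause was not tested. Of the members' values under alternatives, 157 kept direction and side of the threshold, 2 lost the call and 6 changed sign. Those 6 were of uncalled genes: Sdc3 was −0.012 under quantile normalization and −0.01 to 0.055 with an array left out, Gpc3 −0.14 to 0.005 and Gpc4 −0.16 to 0.10 with an array left out. Nedd4 ranged from −1.75 to −1.50 with an array left out. With an array left out, 3 members were higher and 1 lower each time. In the pathway lists, 19 higher genes became 9 by the methods' t-test, 9 at an adjusted p under 0.01 and 9 without Nedd4 siRNA replicate 1 (range 9 to 17 with an array left out), and 26 lower genes became 13 by the methods' t-test (20 to 27 with an array left out). Over all probesets 4579 were called, against 2134 by the methods' t-test, 2881 at an adjusted p under 0.01 and 2962 without Nedd4 siRNA replicate 1. Same-numbered arrays deviated together in 1 of 3 pairs (correlations −0.01, 0.47 and −0.01), and differently numbered pairs ran from −0.43 to 0.42. With 3 arrays per group these values cannot tell whether arrays of the groups were paired, and the main fit used no pairing. With the replicate block 3 members were higher and 1 lower, and in the lists 20 and 27, with 4962 probesets called, and among the named genes Twist1 alone lost its call (adjusted p = 0.0535, limma). Gpc3 and Gpc5 gave no value without the dimmest 25% of probesets, nor Gpc2 without the dimmest 50%, and signal over background limits what can be seen in these 3 genes.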

Other observations

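The genes beside the syndecans and glypicans in the RefSeq annotation (nearest protein-coding gene on each side, and overlapping genes) were read as well. Of 18 such neighbours outside the members 16 were measured, of which 1 was higher and 0 lower, while 18.7% of all genes were called. That gene was Sema5a, a neighbour of Sdc2 that encodes a transmembrane semaphorin and was named after its value was seen. It stood at 6.29 on average with control siRNA and at 7.04 with Nedd4 siRNA, a log2 fold change of 0.75 (standard error 0.093, limma adjusted p = 0.000154) beside 0.79 for Sdc2. Cpq, the neighbour of Sdc2 on the other side, stood at 5.57 and 5.28 and did not pass the test (adjusted p = 0.143, limma). The neighbours of Gpc6 did not pass either, with log2 fold changes of 0.05 for Gpc5 and −0.12 for the melanocyte gene Dct. The neighbours of Sdc4, Rbpjl and Sys1, had log2 fold changes of −0.02 and 0.08.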
